A study of Homo sapiens with 6 samples.

Results

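Solute carriers are membrane proteins that move small molecules and ions across the plasma membrane and the membranes of organelles. The genes described here carry a symbol of SLC followed by a digit. Of 193 such symbols in the expression table, 35 mitochondrial carriers of the SLC25 family, 9 listed amino acid transporters (SLC7A11, SLC7A5, SLC7A1, SLC7A6, SLC3A2, SLC1A4, SLC1A5, SLC38A1 and SLC38A2), 4 antisense genes and 2 pseudogenes were left out by rule. The remaining 143 of 11363 listed genes were 139 carriers from 43 families and 4 genes that are only named after a carrier: the long noncoding RNA gene SLC12A2-DT, SLC2A4RG, SLC4A1AP and SLC7A6OS. They were chosen by symbol, with earlier results of these data known, from a table that lists only genes above a level of expression given below.

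The cells were NOMO-1, an established human line of acute myeloid leukaemia with monocytic features. Parental cells (WT) gave 3 libraries and cells in which MSLN, the gene of the surface glycoprotein mesothelin, was knocked out (MSLN-KO) gave 3. The labels name no treatment or time, and they do not say whether MSLN-KO was 1 clone or a pool, or whether replicates were separate cultures. The p-values therefore measure only the spread between these libraries, which may be technical. Effects of the knockout and of how its cells were isolated cannot be told apart.

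Carriers are grouped into families by sequence, and 1 family can hold importers, exporters and exchangers. Most work as uniporters, as symporters driven by sodium or proton gradients, or as antiporters. In leukaemia cells they supply amino acids, glucose, choline and metals, export lactate and iron, and admit nucleoside drugs.

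Values are CPM (read counts scaled to library size) after TMM scaling, which corrects for composition differences between libraries. The libraries held 23665824 to 30804446 reads in listed genes, inferred from the step between values, and a member had a median of 704 reads in a library. MSLN stood at 153.2, 122.9 and 105.9 CPM in WT and at 45.68, 46.9 and 45.27 CPM in MSLN-KO, a log2 change of -1.43 (limma adjusted p = 1.5e-07), in the direction of the labels. All 11 myeloid markers looked for were listed, with a summed level of 15994 to 16667 CPM in WT and 6790 to 7273 CPM in MSLN-KO. For each of 5 other cell types 1 marker was listed. Of 6 T and NK markers it was NKG7 (37.15 to 40.86 CPM in WT, 29.28 to 34.76 in MSLN-KO), and of 5 B markers CD79B (13 to 15.3 and 3.654 to 4.312). Of 9 erythroid and megakaryocytic markers it was ITGA2B (1.393 to 2.04 and 6.72 to 7.42). Of 9 epithelial and mesothelial markers it was KRT18 (7.972 to 9.71 and 7.068 to 9.05). Of 7 stromal and endothelial markers it was PECAM1 (496.5 to 533.3 and 379.1 to 387.2). A single listed marker does not show that cells of its type were present. In bulk RNA, fewer cells of a type and less RNA per cell cannot be told apart, and the part of these marker differences in any carrier's change was not tested.

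Of the 143 members, 33 (23.1%) were higher and 39 (27.3%) lower in MSLN-KO at a limma adjusted p under 0.05, and 71 did not pass (not called). Each test was repeated under 14 alternatives (13 for SLC1A1, SLC28A3, SLC6A9, SLC7A8 and SLC49A4, which a minimum mean of 5 CPM removed), among them leaving out each library in turn, and a call lost there is given beside the gene. Over all listed genes 45.7% were called, 22.4% higher and 23.3% lower. The median log2 change was 0.00 over the members and 0.01 over all genes. In 77 members (53.8%) the 3 WT and 3 MSLN-KO libraries did not overlap, against 54.7% of all genes. The summed level of the 139 carriers was 5500, 5569 and 5524 CPM in WT and 5634, 5681 and 5610 CPM in MSLN-KO, a ratio of 1.02.

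A change of at least 1 on the log2(CPM + 1) scale was called for 12 members (8.39%), 3 higher and 9 lower, against 3.3% of all genes (1.79% higher, 1.51% lower). The table lists only genes that in at least 3 libraries reached at least 4.9 CPM, so a gene that was low in 1 group was listed only if it was high in the other. In 7 members 1 whole group lay below that level (SLC1A1, SLC26A8, SLC28A3, SLC30A4, SLC43A1, SLC6A9 and SLC7A8), and these had to differ. SLC27A2, SLC47A1 and SLC2A8 lay below it in part of the MSLN-KO libraries, and SLC2A14 and SLC22A16 in part of the WT libraries. For these genes too, the lower group alone would not have led to a listing. Among the 130 members with a mean of at least 5 CPM in both groups, 28 were higher and 33 lower (46.9%, against 44.1% of all genes so chosen), and 3 (2.31%, against 1.8%) changed by at least 1. The plot of the 12 genes by library shows how far apart the groups stood.

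**Figure D1:**
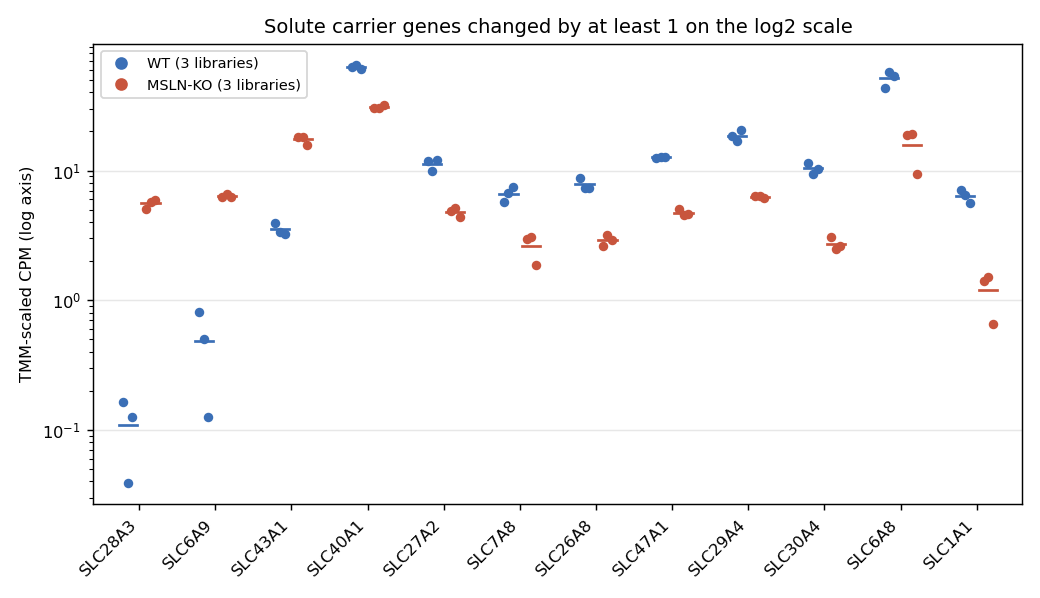
Level of each member changed by at least 1 on the log2(CPM + 1) scale, in TMM-scaled CPM on a log axis, with 1 point per library (3 WT and 3 MSLN-KO) and a bar at each group's mean. The 3 genes that rose start at 0.0387 to 3.957 CPM in WT. Genes were plotted only if the groups did not overlap, which held for all 12 genes called with such a change. In 7 of them 1 whole group lay below the 4.9 CPM at which the table starts, and these had to differ. SLC27A2 and SLC47A1 lay below it in part of the MSLN-KO libraries, and MSLN-KO alone would not have listed them.

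Carriers of amino acids, peptides and amines numbered 20, of which 4 rose and 9 fell (65% called, against 45.7% of all genes, median log2 change -0.13). Their summed level was 646.2 ± 6.048 CPM in WT against 564.9 ± 11.9 in MSLN-KO (means with SD over n = 3 libraries in either group, as below), without overlap. Of the 12 members changed by at least 1, 5 lay in this group, 2 higher and 3 lower. All of these but SLC6A8 were among the 7 members with 1 whole group below the table's 4.9 CPM, which had to differ. These counts leave out the 9 amino acid transporters that the rule sets aside. Of those, 8 rose and 0 fell (88.9% called, median 0.89), among them SLC7A5 (3.39-fold) and SLC1A5 (2.98-fold). With them, 12 of 29 rose and 9 fell (72.4% called), and the median was 0.09.

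SLC6A9 (chr1:43991500-44031467, GRCh38), which encodes a sodium-coupled glycine importer, was near the floor in WT. Its WT libraries read 0.816, 0.5031 and 0.1264 CPM, or 20, 13 and 3 reads, and its MSLN-KO libraries 6.215, 6.554 and 6.22 CPM. The ratio of means was 13.1 (log2 change 2.33, SE 0.16, adjusted p = 1.4e-07). All WT values of SLC6A9 lay below the 4.9 CPM at which the table starts, so it was listed only through MSLN-KO and had to differ. WT replicate 1 held most of the WT signal, and without it the ratio was 20.1. SLC43A1 (chr11:57484534-57515786), a facilitative carrier of large neutral amino acids, read 3.957, 3.328 and 3.244 CPM in WT and 18.18, 18.23 and 15.86 CPM in MSLN-KO. It rose 4.97-fold (log2 change 2.03, SE 0.10, adjusted p = 6e-09). SLC43A1 too lay below 4.9 CPM in all WT libraries, so its groups had to stand apart. SLC38A9, which encodes a lysosomal arginine sensor upstream of mTORC1, rose by 0.20 and SLC38A10 by 0.17. Each of these small rises lost its call when single libraries were left out, with adjusted p up to 0.079 for SLC38A9 and 0.14 for SLC38A10.

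Among the falls, the glutamate and aspartate importers moved in the same direction. SLC1A1 (chr9:4490444-4587469), which also carries cysteine, read 7.058, 6.462 and 5.645 CPM in WT and 1.398, 1.507 and 0.6597 CPM in MSLN-KO. It fell 5.38-fold (log2 change -1.77, SE 0.16, adjusted p = 1.6e-06). Its MSLN-KO values all lay below the table's 4.9 CPM, so it was listed only through WT and had to differ. SLC1A3, the more abundant glutamate carrier of these cells by reads per kilobase (10.2 against 1.6 CPM per kb in WT), fell from 63.97 ± 3.592 to 35.66 ± 3.401 CPM (log2 change -0.83, adjusted p = 1.9e-06).

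SLC6A8 (chrX:153688099-153696593), which imports creatine, read 43.33, 57.93 and 53.71 CPM in WT and 18.92, 19.29 and 9.362 CPM in MSLN-KO. The groups did not overlap, and MSLN-KO replicate 3 lay well below the other MSLN-KO libraries. The fall was 3.26-fold (log2 change -1.70, SE 0.20, adjusted p = 2e-05). Near-identical pseudogene copies of SLC6A8 exist elsewhere in the genome, and how reads were divided among them is not known. SLC7A8, a light chain that forms a neutral amino acid exchanger with SLC3A2, read 5.712, 6.656 and 7.456 CPM in WT and 2.952, 3.051 and 1.853 CPM in MSLN-KO (2.52-fold lower, adjusted p = 6.3e-05). SLC7A7, the light chain of a cationic amino acid exchanger with the same partner, fell by 0.55 on the log2 scale, from 24.74 to 16.59 CPM. SLC7A8 lay below the table's 4.9 CPM in all MSLN-KO libraries, so it was listed only through WT and had to differ.

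The other falls of the group were smaller. SLC15A4, a histidine and peptide exporter of endolysosomes that recruits the adaptor TASL in toll-like receptor signalling, stood at 40.76, 40.9 and 41.12 CPM in WT and at 29.52, 28.89 and 30.1 CPM in MSLN-KO. It fell by 0.46 (adjusted p = 5.3e-05). Its coefficient of variation in WT was 0.439%, against a median of 6.58% over the members, and 3 libraries measure such a spread imprecisely. TASL itself fell by 0.31 (adjusted p = 0.00059). SLC36A4, a carrier of proline and tryptophan, fell by 0.52, and SLC38A5, a sodium-coupled glutamine and serine carrier, by 0.49. SLC15A3, a lysosomal relative of SLC15A4, fell by 0.19 with a call lost in 8 of 14 alternatives (adjusted p up to 0.11). The taurine carrier SLC6A6 was not called (55.0 and 53.8 CPM).

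Nucleoside carriers numbered 7, of which 2 rose and 2 fell (57.1% called, against 45.7% of all genes). SLC28A3 (chr9:84275457-84340683), a concentrative importer of purine and pyrimidine nucleosides and of related drugs, had the largest change of all members. Its WT libraries held 0.1632, 0.0387 and 0.1264 CPM, which is 4, 1 and 3 reads, and its MSLN-KO libraries 5.088, 5.688 and 5.969 CPM, which is 472 reads in all. The ratio of means was 51.0 (log2 change 2.57, SE 0.13, adjusted p = 6.6e-09), and with 8 WT reads in all its size is imprecise. With every WT value below the table's 4.9 CPM, SLC28A3 was listed only through MSLN-KO and had to differ. SLC29A1, the equilibrative carrier by which cytarabine enters cells, read 61.97, 53.48 and 59.02 CPM in WT and 69.06, 70.97 and 60.72 CPM in MSLN-KO. The groups overlapped, and although it was called (log2 change 0.20, adjusted p = 0.044), the call was lost in 5 of 14 alternatives, with adjusted p up to 0.16. SLC29A2, the second equilibrative nucleoside carrier, fell from 14.73 ± 2.066 to 7.759 ± 0.4861 CPM (log2 change -0.84). SLC29A4, which carries monoamines and, in acid, adenosine, read 18.36, 16.76 and 20.64 CPM in WT and 6.409, 6.403 and 6.094 CPM in MSLN-KO (2.95-fold lower, adjusted p = 8.4e-08). SLC43A3, a purine nucleobase carrier, did not pass the test at 141.1 and 138.7 CPM.

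Carriers of fatty acids and choline numbered 5. Their sum was 377.1 ± 5.491 CPM in WT against 660.5 ± 11.91 in MSLN-KO, without overlap, and nearly all of that difference was SLC44A1. SLC44A1 (chr9:105244622-105439171), a choline carrier, read 324.0, 341.9 and 328.0 CPM in WT and 598.2, 621.4 and 620.7 CPM in MSLN-KO. It rose 1.85-fold (log2 change 0.89, SE 0.05, adjusted p = 2.5e-08), with library spread of only a few percent. Per kilobase of exon it went from 27.2 to 50.4 CPM, from rank 3 among the members in WT to rank 1 in MSLN-KO. SLC27A1, an acyl-CoA synthetase and fatty acid importer, rose from 11.47 to 19.56 CPM (log2 change 0.72), and SLC27A2, its peroxisomal relative, fell 2.35-fold from 11.83, 9.868 and 12.05 CPM to 4.894, 5.123 and 4.367 CPM (adjusted p = 3.7e-06). SLC27A2 lay below the table's 4.9 CPM in MSLN-KO replicates 1 and 3, so MSLN-KO alone would not have listed it. The relatives SLC27A3 and SLC27A4 stood at 11.7 and 11.4 CPM in WT and at 11.9 and 10.8 CPM in MSLN-KO, and were not called.

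Metal and haem carriers numbered 24, of which 8 rose and 5 fell (54.2% called, against 45.7% of all genes). The SLC39 family brings zinc and in some members manganese or iron into the cytosol. It had 6 of 11 members higher (54.5%, against 22.4% of all genes) and 2 lower (18.2%, against 23.3%), with a median log2 change of 0.28. The SLC30 family, which moves zinc out of the cytosol, had 0 of 6 higher and 1 lower (16.7% called, median 0.00). The summed levels overlapped between the groups in both families: SLC39 held 723.6 ± 8.393 CPM in WT against 719.9 ± 6.614 in MSLN-KO, and SLC30 held 416.6 ± 8.961 against 415.6 ± 15.43. The level of each gene by library is plotted for both families, beside SLC31A1 and SLC40A1.

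**Figure D2:**
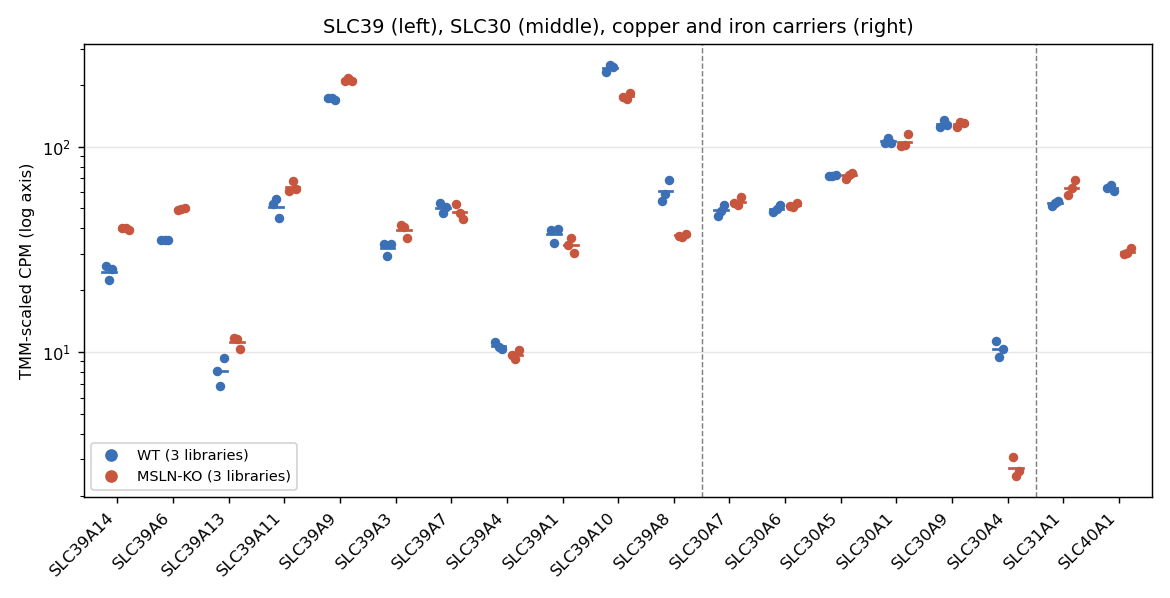
TMM-scaled CPM on a log axis for SLC39 genes, SLC30 genes, and the copper importer SLC31A1 with the iron exporter SLC40A1, separated by dashed lines, with 1 point per library and a bar at each group's mean. SLC39A10 is the highest SLC39 gene in WT and lower in MSLN-KO, and SLC30A4 and SLC40A1 show the widest gaps between the groups. SLC30A4 was listed only through WT and had to differ.

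SLC39A10, a plasma membrane zinc importer and the highest member per kilobase in WT (35 CPM per kb), read 230.0, 251.0 and 245.3 CPM in WT and 175.4, 170.4 and 183.2 CPM in MSLN-KO. It fell by 0.45 (SE 0.06, adjusted p = 2.3e-05) and was at rank 4 per kilobase in MSLN-KO. SLC39A8, an importer of zinc, manganese and iron known from macrophages, fell from 60.72 ± 7.674 to 36.99 ± 0.6587 CPM (log2 change -0.69). Its closest relative SLC39A14 moved the other way, from 26.27, 22.41 and 25.28 CPM to 40.01, 40.34 and 39.21 CPM (log2 change 0.67, adjusted p = 8.2e-06). SLC39A6, a plasma membrane importer, rose by 0.49 and SLC39A9, a Golgi carrier, by 0.30. Rises of 0.28 to 0.44 were called for SLC39A3, SLC39A11 and SLC39A13, the first without a call when MSLN-KO replicate 1 was left out (adjusted p = 0.057). Among magnesium carriers SLC41A1 fell by 0.32 and SLC41A3 rose by 0.22, the latter with adjusted p up to 0.17 over the alternatives.

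The iron exporter and a vesicular zinc carrier had the largest falls of the metal group. SLC40A1 (chr2:189560579-189583758) encodes ferroportin, the only known cellular iron exporter, and read 62.63, 65.28 and 60.7 CPM in WT and 30.14, 30.4 and 32.01 CPM in MSLN-KO. It fell 2.04-fold (log2 change -1.0, SE 0.06, adjusted p = 4.2e-08), without overlap. SLC30A4, which loads zinc into vesicles, fell 3.80-fold, from 11.38, 9.442 and 10.32 CPM to 3.069, 2.486 and 2.639 CPM (log2 change -1.61, adjusted p = 1.2e-07). Its MSLN-KO values all lay below the table's 4.9 CPM, so it was listed only through WT and had to differ. The main plasma membrane zinc exporter SLC30A1 stood at 106.1 and 105.9 CPM and was not called. SLC31A1, the copper importer, rose by 0.25 (adjusted p = 0.0092). Beside these carriers, 7 of 13 listed genes of cytosolic zinc and copper handling fell and 1 rose (61.5% called, against 45.7% of all genes). The 7 included all 6 listed metallothioneins, small zinc and copper buffers that all lie on chromosome 16. Of the other listed genes only SOD1 (-0.25) and CCS (0.30) were called, CCS with a call lost in 3 of 14 alternatives (adjusted p up to 0.081). MT1G fell from 72.83 to 46.55 CPM and MT2A from 120 to 93.3 CPM. MT2A and MT1X lost their calls without WT replicate 3 (adjusted p = 0.093 and 0.067).

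Promoter windows of 300 bases (250 before to 50 after an annotated start, RefSeq, GRCh38.p14) were available for 118 members, in 180 windows. They were searched on both strands for CACGTG (an E-box), TGCNCNC and TGATGNAA (the core of the amino acid response element). TGCNCNC, with N for any base, is a looser form of the metal response element core, so a match need not be that core. Which start NOMO-1 uses was not measured. The windows below are shown for the rise of SLC43A1 and for the 2 metal carriers that fell most. Capitals mark a match on either strand, of CACGTG for SLC43A1 and of TGCNCNC for the 2 metal carriers. They were picked among members with a match and are no sample of the family, and a match of so few letters is a description of the window and not a binding site. SLC43A1 has another window (chr11:57514860-57515159), which held 0 matches of CACGTG.
SLC43A1 (chr11:57515653-57515952, minus strand): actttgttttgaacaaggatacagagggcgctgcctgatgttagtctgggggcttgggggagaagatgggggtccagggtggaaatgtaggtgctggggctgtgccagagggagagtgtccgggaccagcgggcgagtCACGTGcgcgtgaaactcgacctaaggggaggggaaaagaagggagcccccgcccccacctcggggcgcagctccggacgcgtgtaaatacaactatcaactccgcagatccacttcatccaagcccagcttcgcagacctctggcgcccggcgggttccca
SLC40A1 (chr2:189580737-189581036, minus strand): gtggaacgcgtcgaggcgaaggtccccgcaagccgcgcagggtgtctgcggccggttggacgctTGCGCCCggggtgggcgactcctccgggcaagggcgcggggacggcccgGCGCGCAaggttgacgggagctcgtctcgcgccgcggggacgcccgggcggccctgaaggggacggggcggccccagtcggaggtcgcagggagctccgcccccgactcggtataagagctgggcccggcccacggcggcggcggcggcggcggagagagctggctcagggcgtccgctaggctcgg
SLC30A4 (chr15:45522706-45523005, minus strand): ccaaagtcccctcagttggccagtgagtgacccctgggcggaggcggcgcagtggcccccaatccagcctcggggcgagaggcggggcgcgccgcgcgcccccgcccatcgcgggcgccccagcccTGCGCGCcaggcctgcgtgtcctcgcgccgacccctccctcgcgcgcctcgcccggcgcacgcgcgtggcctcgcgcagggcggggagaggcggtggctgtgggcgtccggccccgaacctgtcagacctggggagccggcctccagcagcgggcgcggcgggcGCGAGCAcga
TGCNCNC was in 113 of the 180 member windows (62.8%), against 62.1% of the 13086 windows of listed genes and 55.9% of all 35116 windows of the table. It was in 72.7% of the windows of members that rose, 60% of those that fell and 59.3% of those not called, against 62.1%, 62.5% and 61.9% over all listed genes. CACGTG was in 12.8% of member windows, 9.49% of those of listed genes and 7.26% of all. TGATGNAA was in 3.33%, or 6 windows, against 1.89% and 3.62%. CACGTG was in 11.4% of the windows of members that rose, 16% of those that fell and 11.6% of those not called, against 8.5%, 9.61% and 9.84% over listed genes.

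Carriers of sugars and polyols numbered 16, of which 3 rose and 3 fell (37.5% called, against 45.7% of all genes). The glucose importer SLC2A1 read 48.84, 54.8 and 62.85 CPM in WT and 46.38, 51.53 and 39.96 CPM in MSLN-KO, overlapping, with a log2 change of -0.27 (adjusted p = 0.043). That call was lost in 6 of 14 alternatives, with adjusted p up to 0.2. SLC2A3, the high-affinity glucose importer, was not called (83.21 and 70.91 CPM). SLC2A14, which is nearly identical to SLC2A3 in sequence, rose from 4.405 ± 0.8112 to 8.892 ± 0.307 CPM (log2 change 0.88, adjusted p = 5.5e-05), a value that rests on how reads were divided between the copies. SLC2A14 lay below the table's 4.9 CPM in WT replicates 1 and 3, so WT alone would not have listed it. SLC2A8, an intracellular glucose carrier, fell from 11.75, 8.281 and 10.91 CPM to 5.438, 5.198 and 4.806 CPM (log2 change -0.87). SLC2A8 lay below 4.9 CPM in MSLN-KO replicate 3, so MSLN-KO alone would not have listed it. SLC5A3, the myo-inositol importer and the group's most abundant gene by CPM, was not called at 206.1 and 215.4 CPM. The fructose carrier SLC2A5 rose from 30.8 to 38.9 CPM (log2 change 0.33). SLC37A1 rose by 0.28 and the lysosomal carrier SLC2A6 fell by 0.35, and each lost its call in 4 of 14 alternatives. TXNIP, an arrestin known to drive internalisation of glucose carriers, stood at 568.4, 604.9 and 435.5 CPM in WT and 996.6, 988.4 and 1079 CPM in MSLN-KO (log2 change 0.94).

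Of 5 carriers of monocarboxylates and dicarboxylates 1 rose and 1 fell (40% called, against 45.7% of all genes). SLC16A3, the lactate exporter of glycolytic cells, was not called (134.3 and 135.3 CPM). SLC16A1, which carries lactate in both directions, read 39.13, 38.7 and 45.07 CPM in WT and 47.39, 49.98 and 45.65 CPM in MSLN-KO, a log2 change of 0.22 (adjusted p = 0.027). Its call was lost without WT replicate 1, WT replicate 2, MSLN-KO replicate 1 or MSLN-KO replicate 2, with adjusted p up to 0.1. SLC16A6, which carries ketone bodies, fell from 14.67 to 10.51 CPM (adjusted p = 0.0021). BSG and EMB, chaperones that bring lactate carriers to the surface, fell by 0.27 and 0.30.

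Ion carriers numbered 17, of which 4 rose and 5 fell (52.9% called, against 45.7% of all genes). SLC12A4, a potassium and chloride cotransporter, rose from 24.68, 24.15 and 25.19 CPM to 32.32, 36.09 and 34.37 CPM (log2 change 0.46, adjusted p = 0.00014), without overlap. SLC4A2, a chloride and bicarbonate exchanger, rose from 24.3 to 32.3 CPM (log2 change 0.39). Of the endosomal proton exchangers, SLC9A7 rose by 0.33, with a near-identical pseudogene copy that makes the value uncertain, and SLC9A9 fell by 0.47, with a call lost without WT replicate 3 or MSLN-KO replicate 1 (adjusted p up to 0.08). Of the sodium-dependent calcium exchangers, 3 fell: SLC8A1 from 86.2 to 62.01 CPM, SLC24A1 from 18.35 to 13.12 CPM and SLC24A4 from 11.07 to 7.284 CPM. The mitochondrial exchanger SLC8B1 was not called (61.9 and 60.5 CPM, log2 change -0.03). OXSR1 and STK39, the kinases that regulate chloride cotransporters, fell by 0.48 and 0.34, and WNK1, the kinase above them, rose by 0.28. In all, 4 of 14 listed partners and accessory genes rose and 6 fell (71.4% called, against 45.7% of all genes, median -0.10), counting OSTM1, a higher gene of the list whose known partner is a chloride exchanger outside the SLC families.

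Carriers of phosphate, sulfate and other anions had 0 of 5 members higher and 3 lower (60% called, against 45.7% of all genes). SLC26A8, an anion carrier known from the testis, read 8.813, 7.391 and 7.33 CPM in WT and 2.602, 3.202 and 2.922 CPM in MSLN-KO (2.70-fold lower, adjusted p = 3.2e-06). Its MSLN-KO values all lay below the table's 4.9 CPM, so it was listed only through WT and had to differ. SLC20A1, the widely expressed phosphate importer, fell by 0.27, and lost the call without WT replicate 3 (adjusted p = 0.056). Its relative SLC20A2 fell by 0.26 and lost the call in 3 of 14 alternatives. The sulfate carrier SLC26A2 was not called (56.54 and 60.15 CPM). Vitamin carriers had 0 of 6 higher and 2 lower (33.3% called). SLC46A1, the proton-coupled folate importer, fell from 15.33 ± 1.421 to 11.6 ± 1.39 CPM (adjusted p = 0.0084), and the thiamine carrier SLC19A2 fell by 0.26 with a call lost in 7 of 14 alternatives (adjusted p up to 0.12), while the reduced folate carrier SLC19A1 was not called (22.9 and 22.0 CPM).

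Carriers of organic ions numbered 6, of which 2 rose and 2 fell (66.7% called, against 45.7% of all genes). SLC47A1, which exports organic cations in exchange for protons, read 12.44, 12.69 and 12.68 CPM in WT and 5.088, 4.558 and 4.587 CPM in MSLN-KO. It fell 2.66-fold (log2 change -1.25, SE 0.09, adjusted p = 2.3e-07), with both groups tight. SLC47A1 lay below the table's 4.9 CPM in MSLN-KO replicates 2 and 3, so MSLN-KO alone would not have listed it. SLC22A4, the ergothioneine importer, fell by 0.62, and SLC22A16, a carnitine carrier that also takes up doxorubicin, rose from 4.998 to 7.387 CPM (log2 change 0.48, adjusted p = 0.0022). SLC22A16 lay below 4.9 CPM in WT replicate 3, so WT alone would not have listed it.

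The 13 carriers of nucleotide sugars and acetyl-CoA all lay between -0.29 and 0.30 on the log2 scale. Of these 4 were higher and 2 lower (46.2% called, against 45.7% of all genes). SLC35A1, which brings CMP-sialic acid into the Golgi, fell from 41.16 to 33.62 CPM (adjusted p = 0.0083), and SLC35B3, which carries the sulfate donor PAPS, rose from 14.19 to 17.72 CPM (adjusted p = 0.0084). SLC35A5 fell by 0.26, and SLC35A3, SLC35B4 and SLC35D1 rose by 0.21, 0.28 and 0.21, with calls lost when libraries were left out (adjusted p up to 0.16, 0.053 and 0.13). SLC33A1, the acetyl-CoA carrier, was not called (101.3 and 100.2 CPM). Of 15 orphans and others 1 rose and 4 fell (33.3% called). The falls were SLC66A3 (-0.56), SLC35F2 (-0.55), SLC16A14 (-0.41) and SLC35E3 (-0.40). SLC35E2B rose by 0.24, but its near-identical copy SLC35E2A makes the value uncertain. Among the genes only named after a carrier, SLC2A4RG, a transcription factor gene, rose by 0.35 and SLC7A6OS by 0.22, the latter with adjusted p up to 0.14. The plot by substrate group sets all 143 members side by side.

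**Figure D3:**
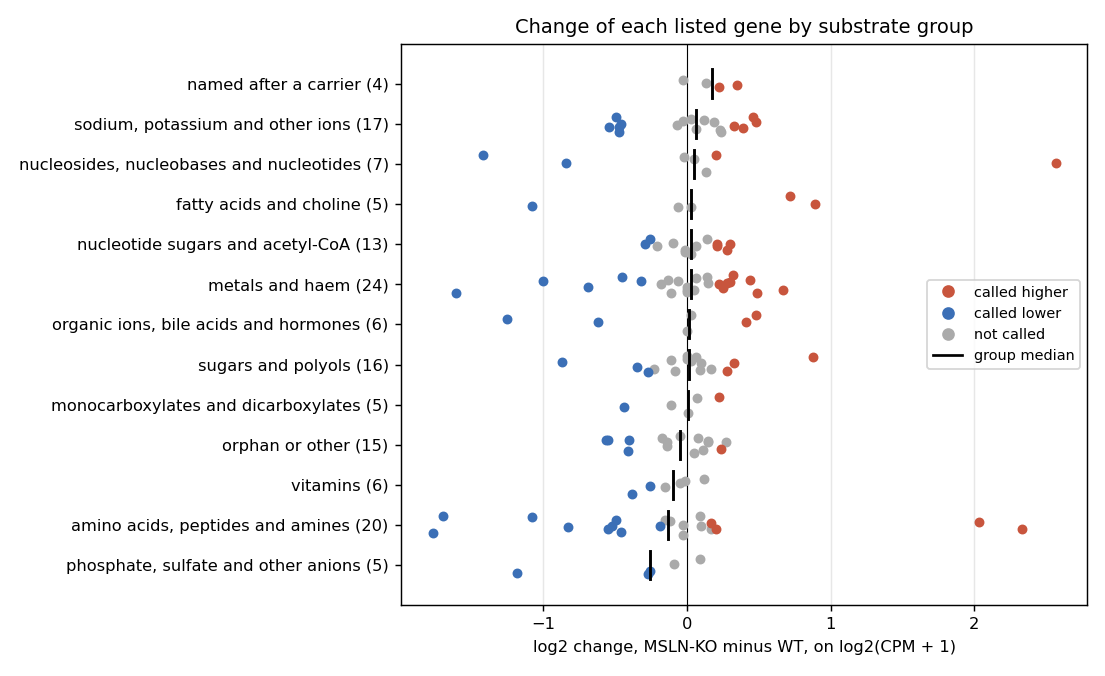
Log2 change of MSLN-KO against WT on the log2(CPM + 1) scale for every member, 1 point per gene, in rows by substrate with the number of genes, coloured by call, with the group median as a black bar. Group medians run from -0.26 for phosphate, sulfate and other anions to 0.17 for the 4 genes named after a carrier.

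The 4 members on chromosome 15, among them SLC27A2, SLC30A4 and SLC24A1, all fell, with a median log2 change of -0.79. Of all 371 listed genes of that chromosome 83% fell, with a median of -0.57, against 21.3% of genes elsewhere. Off chromosome 15, 33 of 139 members rose and 35 fell (48.9% called, against 44.4% of all genes off it). Within 1 Mb of SLC30A4, 10 of 11 listed neighbours fell (median -0.59), and within 1 Mb of SLC27A2 7 of 9 fell (median -0.32). Of these neighbours 0 fell as far as the member did. For SLC24A1, 13 of 18 neighbours changed further down than the member. The part of the shift over the whole chromosome in the 4 members' changes was not tested.

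**Figure D4:**
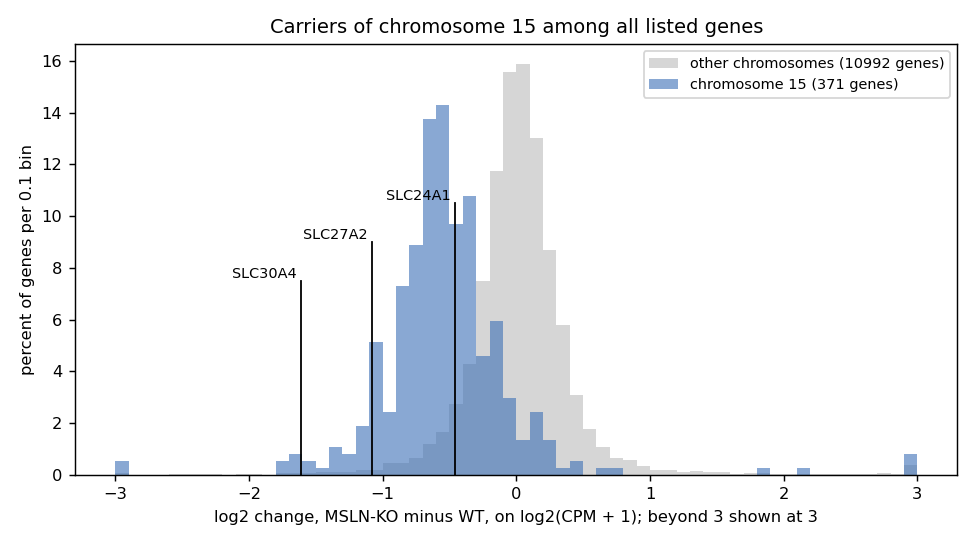
Percent of listed genes per 0.1 bin of log2 change (MSLN-KO minus WT on log2(CPM + 1), values beyond 3 shown at 3) for the 371 genes on chromosome 15 and for all others, with SLC27A2, SLC30A4 and SLC24A1 marked. SLC24A1 (-0.46) lies near the chromosome's median of -0.57, and SLC30A4 (-1.61) and SLC27A2 (-1.08) lie below it.

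The members that fell had a median level of 15.7 CPM, those that rose 30.2 CPM and those not called 30.4 CPM. Libraries of a group differed by a median coefficient of variation of 6.58% in WT and 6.35% in MSLN-KO over the members, against 6.15% and 5.6% over all genes. Per kilobase of exon, the highest members in WT were SLC39A10 (35 CPM per kb), SLC43A3 (31.2) and SLC44A1 (27.2), and in MSLN-KO SLC44A1 (50.4), SLC43A3 (30.7) and SLC39A9 (29.7).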

How the data were processed

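RNA of 3 WT and 3 MSLN-KO samples of NOMO-1 was sequenced from stranded, ribosomal RNA-depleted libraries, per the labels' protocols. Per the submitters' processing notes, the authors used STAR, featureCounts, edgeR and GRCh38. For versions, the strand setting and the annotation release, the sources used here say nothing. The authors deposited TMM-scaled CPM of 11363 genes, as its column totals of 967718 to 1009572 show. In each column 100% of values were whole multiples, within 0.01 of a read, of what 1 read is worth, and read numbers rest on that step.

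Symbols were matched for 11354 genes, and coordinates come from GENCODE release 29, which held 11314. Groups come from the titles and genotypes. MSLN-KO was compared with WT by limma 3.58.1 in R 4.3.3 (lmFit, eBayes with trend) on log2(CPM + 1), 2-sided, with Benjamini-Hochberg adjustment over all genes and a threshold of 0.05. A filter at a mean of 0.5 CPM left every gene in (lowest mean 2.85). The log2(CPM + 1) scale understates changes of low genes. Each fold is a mean CPM divided by the other group's. The fit was tested on simulated data. No count test was run, since the deposited values are CPM and the inferred read step could not be fully checked.

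Members, lists and alternatives were chosen with earlier results of these data known. Named by rule were members called with a log2 change of at least 1 and no overlap, the largest called rise and fall and the most abundant member of each substrate group, members on chromosome 15, and the largest called rise and fall of each list beside them. Some genes that this rule names are not reported here. Other genes were named after their values were seen. Lists are described by counts and medians, with no set test. Alternatives changed the pseudocount, filter, scaling, trend, block and libraries. The labels do not say whether replicate numbers pair the libraries, and the main test treated them as unpaired. Deviations of same-numbered libraries from their group means correlated at 0.192, -0.169 and -0.092 across genes. With deviations from means of so few libraries, these values cannot settle whether the numbers pair.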

Additional observations from a re-analysis of the deposited data

How the results depend on the processing

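Of 72 called members, 54 kept the call under every alternative run for them (13 for SLC1A1, SLC28A3, SLC6A9 and SLC7A8, which a minimum mean of 5 CPM removed, and 14 for the others) and 18 lost it under at least 1; 14 members not called gained a call under at least 1, and 0 reversed. Counts of members higher and lower stayed within 1.5 times their main values: 23 to 31 higher and 32 to 41 lower when 1 library was left out, 37 and 36 with columns rescaled to the same total, which raised the median of all genes to 0.04. Over all genes, leaving out 1 library gave 1947 to 2486 higher and 2139 to 2628 lower, and rescaling 2942 and 2278. With at least 5 CPM on average in both groups, an alternative chosen after seeing the data, 28 members were higher and 33 lower.

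With the replicate number as a block, 32 members were higher and 37 lower (2413 and 2533 of all genes). Whether the numbers pair libraries is not known, and WT replicate 2 deviated most like MSLN-KO replicate 3 (r = 0.301 across genes). The planned edgeR test on reads was not run. The values were whole multiples of the inferred read step, but too few low values are listed to check that step fully. Reads limit SLC28A3 and SLC6A9, with 8 and 36 WT reads in all.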

Other observations

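Other transporter classes were listed beside the solute carriers, and their values belong to no comparison above. Of 17 ABC transporters, pumps and channels driven by ATP, 8 rose and 4 fell (70.6% called, against 45.7% of all genes), with a median log2 change of 0.04. ABCD2, a peroxisomal importer of very long chain fatty acids, rose from 1.102, 1.161 and 0.6319 CPM to 6.72, 6.516 and 6.534 CPM (log2 change 1.96). All its WT values lay below the 4.9 CPM at which the table starts, so it was listed only through MSLN-KO and had to differ. ABCB4, a phosphatidylcholine exporter, rose from 4.651, 5.882 and 4.17 CPM to 19.77, 15.26 and 18.31 CPM (log2 change 1.67). ABCB4 lay below 4.9 CPM in WT replicates 1 and 3, so WT alone would not have listed it. ABCA1, which exports cholesterol to apolipoproteins, fell from 23.19 to 13.15 CPM (log2 change -0.75). In none of these 3 genes did the groups overlap.

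Of 20 P-type pumps 6 rose and 4 fell (50% called, against 45.7% of all genes, median 0.01). ATP8A1, a flippase of phosphatidylserine, rose from 15.67, 16.33 and 13.9 CPM to 38.49, 35.78 and 38.64 CPM (log2 change 1.25, adjusted p = 5.1e-08), and its relative ATP8B4, on chromosome 15, fell from 361.4 to 232 CPM. Of 24 carriers that are numbered as solute carriers but known by another symbol, 5 rose and 7 fell (50% called, median -0.05). The largest rise among them was CTNS, the lysosomal cystine exporter (0.52), and the largest fall FLVCR1, a choline and haem carrier (-0.56). Of 3 listed organic anion carriers 2 fell (66.7% called). SLCO3A1, on chromosome 15, fell by 0.64. SLCO4C1 fell by 0.24, with a call lost without MSLN-KO replicate 1 (adjusted p = 0.078).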
